A study of Mus musculus with 35 samples.

Results

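The Siglec family receptors are described here in microglia sorted from the midbrain, striatum and prefrontal cortex (PFC) of adult mice. The 5 members, Siglech, Siglece, Cd33, Siglec1 and Cd22, were taken by symbol from a table of 21236 genes, and each was found there once. All mice were heterozygous for Tmem119-2A-CreERT2 and Ai14(RCL-tdTomato)-D, a Cre driven by a microglial gene and a reporter that Cre switches on, and all had received tamoxifen, so there was no untreated group. Cells positive for tdTomato were sorted from 6 male and 6 female mice, giving 12 midbrain samples, 12 striatum samples and 11 PFC samples, of which 5 were male, since 1 male PFC sample was lost. Sample titles carry a number from which the mouse was read, odd for males and even for females. The reporter marks cells that expressed Tmem119 when tamoxifen was given, so microglia without Tmem119 at that time may have been missed.

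Siglecs are cell surface lectins that bind sialic acid, the sugar that caps many glycans of the cell surface. Most carry inhibitory motifs in the cytoplasmic tail, which recruit the phosphatases SHP-1 (Ptpn6) and SHP-2 (Ptpn11), and some pair instead with the activating adaptor DAP12 (Tyrobp). In the brain they are known as receptors through which microglia read sialic acid on neighboring cells and by which phagocytosis is restrained. Siglech, which pairs with DAP12, is a common marker of microglia and of plasmacytoid dendritic cells, Siglece is an inhibitory receptor of myeloid cells, and Cd33 is the mouse counterpart of the human myeloid receptor of that name. Cd22 is best known as an inhibitory coreceptor of B cells, and Siglec1 (sialoadhesin, CD169) as a marker of macrophages at the borders of the brain and as an interferon-inducible gene.

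Total counts ran from 37680501 to 54131421 per sample, and 3 counts, the floor used here, equaled 0.0561 to 0.0789 CPM (counts scaled to library size with TMM factors). The labelled cell type was checked on 12 genes of homeostatic microglia, among them P2ry12, Tmem119 and Cx3cr1, whose CPM summed to between 48531 and 61738 in every sample. Lists for neurons (8 genes, sums of 2.31 to 27.1 CPM) and endothelial cells (8 genes, 11.7 to 70.4 CPM) were low. Sums for oligodendrocytes (8 genes) ran from 190.4 to 795 CPM and for astrocytes (8 genes) from 218 to 571 CPM. The column of 1 striatum sample, of mouse 3, bears a PFC name while its label gives the striatum, and it was used as labelled. The midbrain sample of mouse 6 stood apart in the border macrophage list (9 of 10 genes in the table), at 126 CPM against at most 19.5 CPM in the other samples, with 97.9 CPM of Ms4a7 and 352 CPM of Igkc. Results of the members that rest on either sample are given without it. Calls of other genes are not given without these samples, and some of those calls were lost in such fits.

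Of the members, 4 lie on chromosome 7 (GRCm38, positions from GENCODE M21) and are protein coding. Cd22 (ENSMUSG00000030577) lies at chr7:30865402-30880342, Cd33 (ENSMUSG00000004609) at chr7:43524216-43544428 and Siglece (ENSMUSG00000030474) at chr7:43651070-43660161, all 3 on the minus strand, and Siglech (ENSMUSG00000051504) at chr7:55768178-55778925 on the plus strand. Siglec1 (ENSMUSG00000027322) lies at chr2:131069220-131086765 on the minus strand. Cd22 overlaps the antisense gene Gm29439 (chr7:30872733-30873333), which had a mean of 2.30 CPM, and without stated strand counting the reads of the pair cannot be told apart.

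The sequence just upstream of the RefSeq start site (GRCm38.p6) is shown for the members whose level varied most clearly with region, Siglech and Cd33, and for Siglecf, a related gene described below. The Siglech sequence covers chr7:55767934-55768177 (plus strand), with capitals on its 1 match to the interferon-gamma activated site TTCNNNGAA. The Cd33 sequence covers chr7:43533172-43533364 (minus strand, inside an intron of a longer GENCODE transcript) and the Siglecf sequence chr7:43351091-43351340 (plus strand), with capitals on a 16-base run that both hold on the same strand relative to their genes.

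Siglech: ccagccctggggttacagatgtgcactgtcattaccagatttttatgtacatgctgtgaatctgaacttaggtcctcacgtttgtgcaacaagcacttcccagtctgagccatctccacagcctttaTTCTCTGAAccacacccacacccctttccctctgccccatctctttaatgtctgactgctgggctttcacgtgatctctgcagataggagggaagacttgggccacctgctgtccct
Cd33: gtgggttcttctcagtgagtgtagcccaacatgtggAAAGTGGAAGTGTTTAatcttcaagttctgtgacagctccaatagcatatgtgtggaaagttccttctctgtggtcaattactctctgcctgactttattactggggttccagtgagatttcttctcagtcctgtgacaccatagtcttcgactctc
Siglecf: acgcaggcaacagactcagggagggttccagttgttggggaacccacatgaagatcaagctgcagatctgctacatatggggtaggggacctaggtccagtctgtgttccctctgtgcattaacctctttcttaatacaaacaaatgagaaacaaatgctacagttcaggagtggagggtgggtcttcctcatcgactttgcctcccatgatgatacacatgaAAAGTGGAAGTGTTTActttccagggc

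Windows of 250 bases upstream of the start were searched on both strands. TTCNNNGAA was found in 7.02% of 32851 RefSeq promoters, and in no Siglec promoter in the table other than that of Siglech, where it lay 123 to 115 bases before the start. The run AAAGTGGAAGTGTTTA began 157 bases before the start of Cd33 and 27 bases before that of Siglecf, and these were the 2 promoters of 32851 that held it. In other pairs of Siglec promoters the longest shared run was 7 to 10 bases. Further motifs, the interferon-stimulated response element (2.98% of all promoters), a PU.1 motif GAGGAAGT (2.44%) and an ETS-IRF composite element (2.3%), had no match in these windows of Siglech, Siglece, Cd33, Cd22, Siglecf or Siglecg. PU.1 and IRF8 are transcription factors of myeloid cells.

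Siglech was the most abundant member, and the family spanned a wide range of levels. Divided by the length of the merged exons of each gene, the mean level over 35 samples was 346 ± 42.9 CPM per kilobase (SD) for Siglech, 57.8 ± 4.66 for Siglece, 53.8 ± 5.22 for Cd33, 3.03 ± 0.676 for Cd22 and 0.0819 ± 0.0922 for Siglec1. Siglech was above Siglece in 35 of 35 samples, Cd33 above Cd22 in 35, and Cd22 above Siglec1 in 35. Siglece and Cd33 were neighbors within their spread on this scale, with Siglece higher in 22 of 35 samples. Their order depends on the merged exon lengths, 7771 bases for Cd33 and 1849 for Siglece. Before that division Cd33 (mean 418 CPM, lowest 310) was above Siglece (mean 107 CPM, highest 133) in every sample. Against the homeostatic list, the level of Siglech per kilobase ranked 11 of 13, below Olfml3 at 442 CPM per kilobase and above Aif1 at 277.

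**Figure D1:**
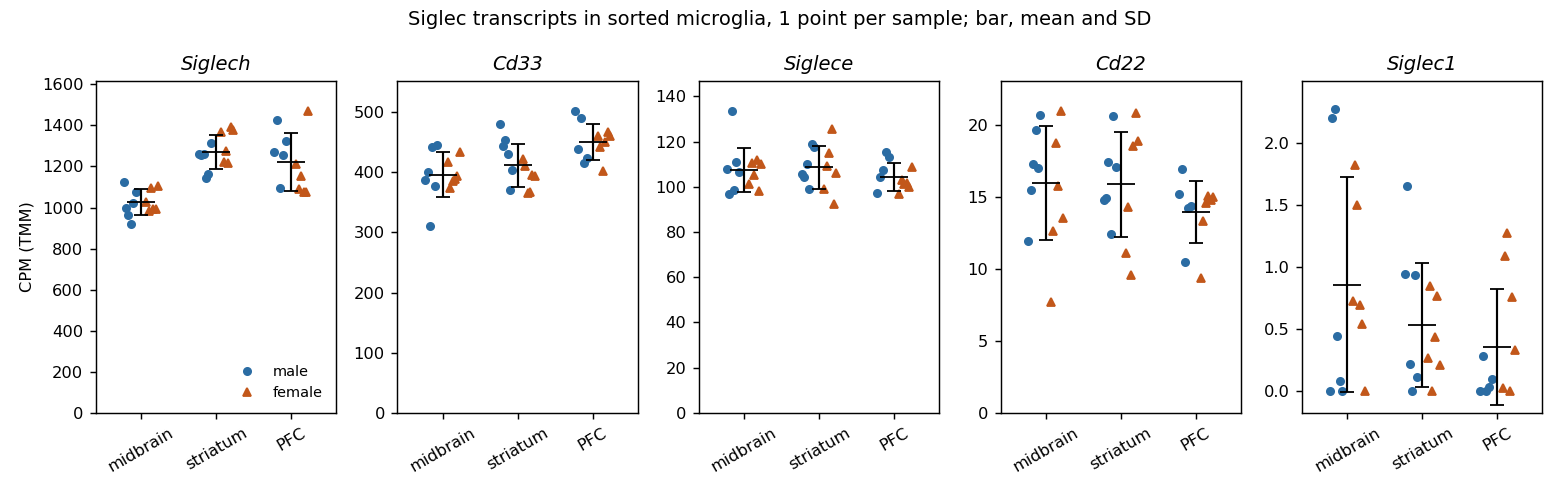
CPM (TMM, vertical axis, one scale per gene) of the 5 members in each sample by region, with circles for males, triangles for females, and bars for the mean and SD of a region. Every striatum sample of Siglech lies above the highest midbrain sample (1125 CPM), while the other members overlap between regions.

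The question put to these samples was whether transcripts of microglia differ between brain regions and between sexes. A region effect was called at an adjusted p under 0.05 (edgeR quasi-likelihood F-test, Benjamini-Hochberg over all genes). A pair of regions was called where, in addition, its own unadjusted p was under 0.05 and the fold change over 1.2. Siglech and Cd33 had a region effect, 2 of 5 members, where 8.89% of all genes did. Between pairs, 1 member (Siglech, higher in the striatum) was called for striatum against midbrain (6.47% of all genes, 3.5% higher in the striatum). For PFC against midbrain, 0 members were called (5.99% of all genes), although 2, Siglech and Cd33, had an unadjusted and an adjusted p under 0.05 (6.52% of all genes had such an adjusted p). For striatum against PFC, 0 were called (3.14% of all genes), with 1 at an unadjusted p under 0.05. DESeq2 and limma-voom gave these same counts for the region effect and the 3 pairs. The median log2 fold change of all genes was between 0.0081 and 0.012 for the 3 pairs. These are RNA levels of sorted pools, in which a change in the share of cells expressing a gene and a change in RNA per cell cannot be told apart.

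Siglech was lowest in the midbrain in every mouse. Its midbrain samples had a lowest value of 921 CPM, a median of 1009.5 and a highest of 1125. The striatum samples ran from 1143 through a median of 1262 to 1394 CPM, and the PFC samples from 1075 through 1209.8 to 1469 CPM. All 12 striatum samples were above the highest midbrain sample, whereas 7 of 11 PFC samples were, so that only the PFC overlapped the midbrain.

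The mean was 1025 ± 62.7 CPM in the midbrain (SD, n = 12), 1271 ± 81.0 in the striatum (n = 12) and 1222 ± 141 in the PFC (n = 11), with an adjusted p of 8.15e-05 for region (edgeR). The striatum exceeded the midbrain by 1.24-fold (95% CI 1.15 to 1.33, log2 fold change 0.31, SE 0.050, edgeR adjusted p = 8.48e-05) and did so in 12 of 12 mice. The PFC exceeded it by 1.19-fold (95% CI 1.11 to 1.28, log2 fold change 0.25, SE 0.051, edgeR adjusted p = 0.00101) in 11 of 11 mice, just short of the minimum fold change. Leaving out mouse 4, 6, 8 or 10 raised that log2 fold change to 0.26 and past the minimum. Striatum and PFC did not separate, with a log2 fold change of 0.057 (95% CI -0.048 to 0.16, edgeR adjusted p = 0.738) and the striatum higher in 6 of 11 mice. The region effect passed in each set of 6 mice by number (adjusted p 0.0225 for mice 1 to 6 and 0.039 for the others, edgeR), and also without the striatum sample of mouse 3 or the midbrain sample of mouse 6.

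**Figure D2:**
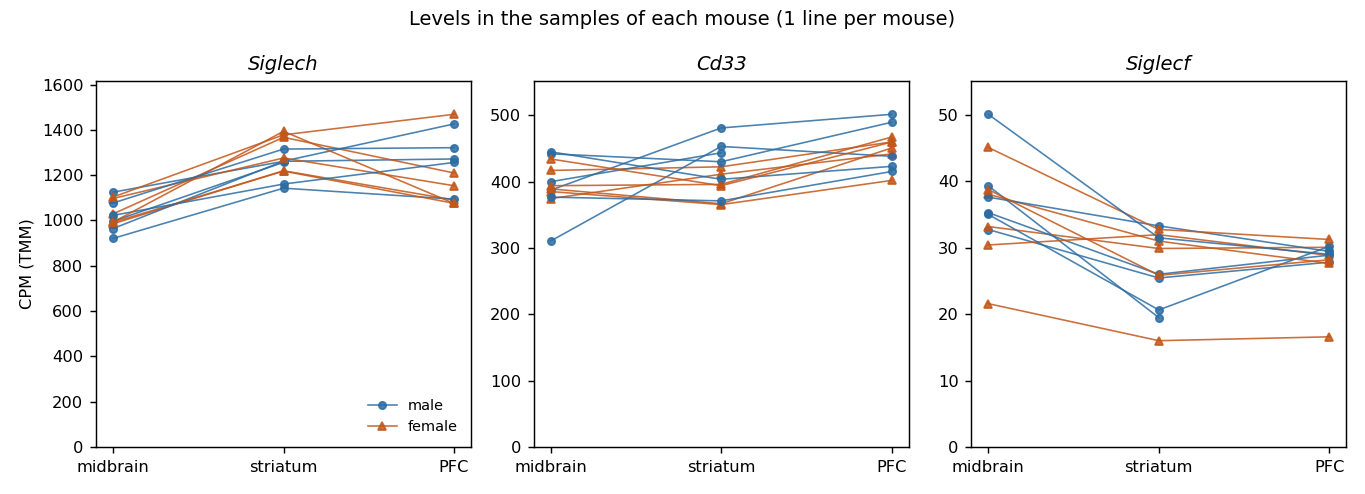
CPM (TMM, vertical axis) of Siglech, Cd33 and Siglecf in midbrain, striatum and PFC, with 1 line per mouse and mouse 3 ending at the striatum. Siglech rises from midbrain to striatum in 12 of 12 mice, Cd33 from midbrain to PFC in 10 of 11, and Siglecf falls from midbrain to PFC in 11 of 11.

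The homeostatic list also summed higher outside the midbrain, at 51932 ± 2460 CPM in the midbrain (SD, n = 12), 56782 ± 2869 in the striatum (n = 12) and 56153 ± 2499 in the PFC (n = 11). Siglech equaled 1.98% ± 0.164 of that sum in the midbrain, 2.24% ± 0.191 in the striatum and 2.19% ± 0.32 in the PFC. In 12 of 12 mice this ratio exceeded its midbrain value in the striatum, and in 7 of 11 it did so in the PFC. Of the 12 homeostatic genes, Fcrls (log2 fold change 0.37), Csf1r (0.32) and Sall1 (0.29) were called as higher in the striatum than in the midbrain, and Fcrls (0.63) and P2ry12 (0.29) as higher in the PFC. Among all genes, 6.47% were called for striatum over midbrain in either direction, 3.5% as higher in the striatum, and 5.99% for PFC over midbrain in either direction. The median of the list was 0.11 in both comparisons, and the calls of Csf1r, Sall1 and P2ry12 were lost on leaving out 6, 1 and 1 of the 12 mice in turn. Fcrls encodes a scavenger receptor related to Fc receptors, Csf1r the receptor for colony stimulating factor, Sall1 a transcription factor of microglia and P2ry12 a purinergic receptor.

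Plasmacytoid dendritic cells, the other cells that carry Siglech, were checked by 7 genes, of which Klk1 was not in the table. Their sum ran from 11.7 to 19.6 CPM in the midbrain, 4.67 to 13.2 in the striatum and 4.28 to 8.24 in the PFC. Most of it was Cox6a2, with means of 10.9, 3.68 and 2.17 CPM in the midbrain, striatum and PFC, and Pacsin1. The latter ran the other way, with means of 2.23, 3.33 and 3.29 CPM. Ly6d (1.30, 0.509 and 0.251 CPM), Il3ra (1.09, 0.577 and 0.543) and Spib (0.268, 0.0612 and 0.0587) were, like Cox6a2, highest in the midbrain. The defining genes Ccr9 and Spib were at 0 in 17 and 14 of 35 samples and reached at most 0.623 and 0.856 CPM. Astrocyte transcripts moved with Siglech, with sums of 218 to 281 CPM in the midbrain, 278 to 504 in the striatum and 271 to 571 in the PFC, and their part in the result was not tested.

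The genes whose level was most like that of Siglech over the 35 samples, taken from the 8606 genes that averaged 8 CPM or more, were Ecscr (Pearson r of log2 CPM 0.822), Mgll (0.762) and Slc1a2 (0.756), where the median r of all those genes was -0.021. Slc1a2 is a glutamate transporter best known from astrocytes, and Mgll is monoacylglycerol lipase, which degrades an endocannabinoid. With the means of region and sex removed these r values were 0.454, 0.345 and 0.402. The samples share mice and regions, so that these are descriptions.

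Cd33 was highest in the PFC. The midbrain samples ran from 310.4 CPM through a median of 391 to 445, the striatum samples from 365 through 407 to 481, and the PFC samples from 402 through 451 to 502. The regions overlapped, with 6 of 11 PFC samples above the highest midbrain sample. The lowest value of all was the midbrain sample of mouse 5.

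The mean was 396 ± 36.7 CPM in the midbrain (SD, n = 12), 411 ± 36.2 in the striatum (n = 12) and 449.9 ± 30.3 in the PFC (n = 11). The PFC exceeded the midbrain by 1.14-fold (95% CI 1.06 to 1.22, log2 fold change 0.19, SE 0.053, edgeR adjusted p = 0.0245), in 10 of 11 mice, with mouse 11 the exception. Against the striatum the PFC was higher in 10 of 11 mice (striatum over PFC log2 fold change -0.13, 95% CI -0.24 to -0.025, edgeR adjusted p = 0.282), and the striatum was above the midbrain in 6 of 12. The region effect had an adjusted p of 0.0452 (edgeR), close to the threshold. It was over the threshold on leaving out any 1 mouse other than 5 and 11 (adjusted p 0.0352 to 0.115 over the 12 mice), with mice 1 to 6 only (0.206) or the others only (0.129), and without the midbrain sample of mouse 6 (0.0621). Without the striatum sample of mouse 3 it was 0.0495, and with the mouse as a block 0.0162. Most like Cd33 over the samples were Ulk2 (r 0.758), Tbl1xr1 (0.741) and Mef2c (0.74), the last a transcription factor.

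**Figure D3:**
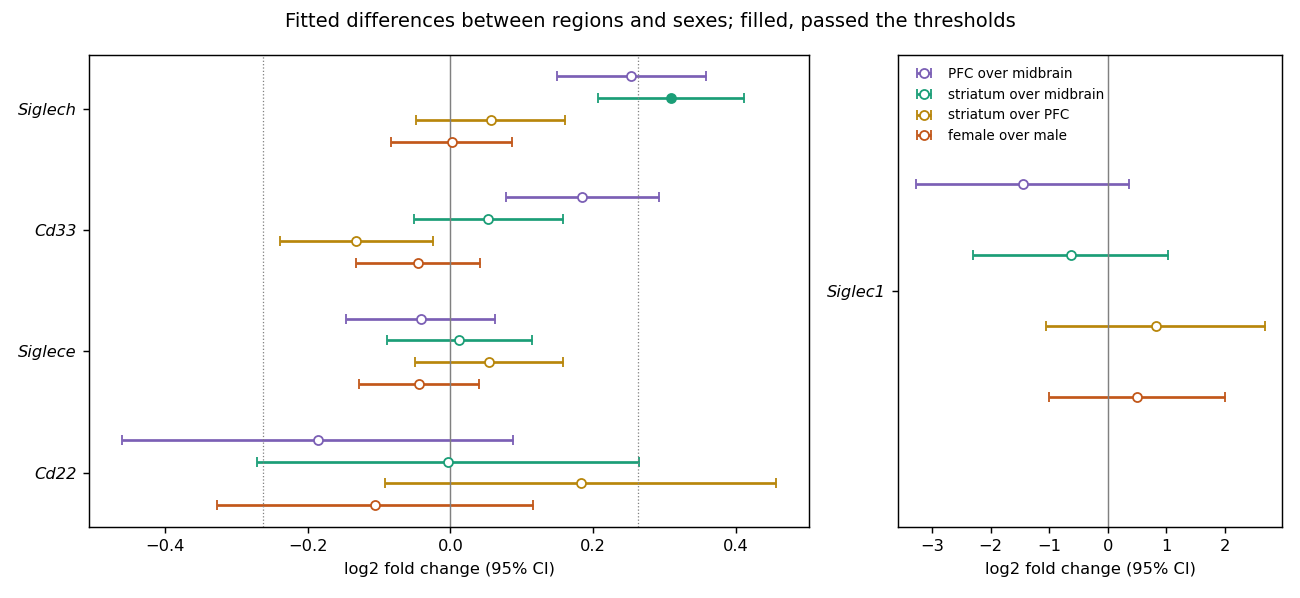
Log2 fold change with its 95% CI (horizontal axis) for each member in the 3 pairs of regions and for sex, from the fit over all samples, with filled points for those that passed and dotted lines at a fold change of 1.2. Siglec1 has its own, wider axis. Striatum over midbrain for Siglech is the filled point, at 0.31.

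Siglece was level across regions. It had 97.0 to 133 CPM in the midbrain (median 107), 92.6 to 126 in the striatum (median 108) and 96.8 to 115 in the PFC (median 103), and the 3 ranges overlapped. The mean was 108 ± 9.75 CPM in the midbrain (SD, n = 12), 109 ± 9.51 in the striatum (n = 12) and 104 ± 6.14 in the PFC (n = 11), with an adjusted p of 0.795 for region (edgeR). The 95% CI of the log2 fold change was -0.15 to 0.063 for PFC over midbrain and -0.089 to 0.11 for striatum over midbrain, so the fits left room for differences of up to about these sizes.

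Between samples, Siglece and Cd33 ran in opposite directions, with a Pearson r of -0.572 over the 35 samples and of -0.658 with the means of region and sex removed. The midbrain sample of mouse 5, with 310.4 CPM of Cd33, had the most Siglece of all at 133 CPM. The male PFC sample of mouse 1, with the most Cd33 at 502 CPM, had 97.1 CPM of Siglece. No other pair of members had an r beyond -0.35, that of Cd33 and Siglec1. Most like Siglece were Abhd12 (r 0.659), a lysophospholipid lipase, Ppp2r3d (0.635), and Hexa (0.632), a lysosomal hexosaminidase. Samples of 1 mouse are not independent and total counts are shared by all genes of a sample, so this r is a description.

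**Figure D4:**
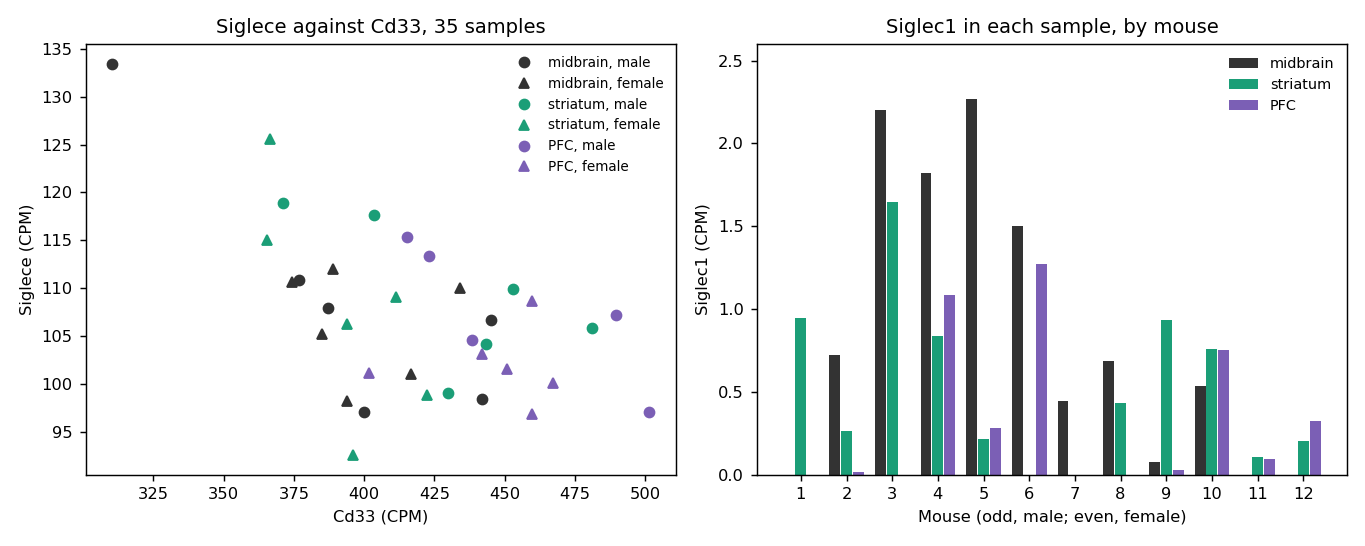
Left, Siglece against Cd33 in the 35 samples (CPM on both axes, which do not start at 0), with color for region and shape for sex, where samples with more Cd33 have less Siglece (r -0.572). Right, Siglec1 CPM in each sample by mouse, with 1 bar per region, where the 7 samples over 1 CPM all come from mice 3, 4, 5 and 6.

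Cd22 was low and varied widely between samples. It had 7.70 to 20.96 CPM in the midbrain (median 16.4), 9.59 to 20.8 in the striatum (median 16.02) and 9.39 to 16.96 in the PFC (median 14.6), from 350 to 1017 counts per sample. Means were 15.95 ± 3.96 CPM in the midbrain (SD, n = 12), 15.9 ± 3.64 in the striatum (n = 12) and 14.0 ± 2.18 in the PFC (n = 11), with an adjusted p of 0.615 for region (edgeR). The 95% CI of the log2 fold change was -0.46 to 0.088 for PFC over midbrain. In the midbrain and striatum, the mean of mice 7 to 12 was 17.9 and 18.1 CPM and that of mice 1 to 6 was 14.0 and 13.7, while in the PFC the means were 14.0 and 13.9. The labels do not mark these sets of mice as a batch.

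Of 8 B cell genes, 7 were in the table. Of them 2, Ighm (mean 675 CPM, lowest 527) and Cd79b (mean 40.2 CPM, lowest 30.1), were well above the floor in every sample. Cd79a also reached the floor in every sample (lowest 0.0644 CPM), with means of 1.84 CPM in the midbrain, 0.840 in the striatum and 0.425 in the PFC. The defining gene Ms4a1 was at 0 in 11 of 35 samples, with a median of 0.194 CPM. The sample with the most of it, the midbrain of mouse 3 at 4.51 CPM, had 15.5 CPM of Cd22, and the midbrain of mouse 6, with 0.261 CPM of Ms4a1 but the most Igkc (352 CPM) and the highest sum of the list (1034 CPM, against at most 837 in the other samples), had 18.7. The part of B cell transcripts in the Cd22 level was not tested. Most like Cd22 were Epb41l3 (r 0.651), Gltp (0.65) and Ctsz (0.635), the last a lysosomal cathepsin.

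Siglec1 was the lowest member and varied widely between samples. It was under 3 counts in 10 of 35 samples, of which 8 had 0 counts, and its median was 0.613 CPM in the midbrain, 0.348 in the striatum and 0.0974 in the PFC. The highest values were the midbrain samples of mice 5, 3, 4 and 6, at 2.27, 2.2, 1.82 and 1.5 CPM, and the striatum sample of mouse 3 at 1.65, with the PFC of mice 6 and 4 at 1.27 and 1.08. These 7 samples, all of mice 1 to 6, were the samples over 1 CPM, against 0 of 18 samples of mice 7 to 12. Means were 0.855 ± 0.867 CPM in the midbrain (SD, n = 12), 0.529 ± 0.5 in the striatum (n = 12) and 0.351 ± 0.469 in the PFC (n = 11), with an adjusted p of 0.58 for region (edgeR) and a 95% CI of the log2 fold change of -3.28 to 0.37 for PFC over midbrain.

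Markers of border macrophages were set beside Siglec1. The list summed to 2.62 to 126 CPM in the midbrain, 4.22 to 11.7 in the striatum and 3.81 to 11.1 in the PFC. Outside the midbrain it was mostly Mrc1 (mean 4.50 CPM over all samples), while Cd163 was at 0 in 25 of 35 samples. Ms4a7 had a mean of 3.75 CPM but a median of 0.368, with 97.9 CPM in the midbrain of mouse 6 and at most 4.79 in any other sample. The sample with the sum of 126 CPM, the midbrain of mouse 6, had 1.5 CPM of Siglec1, less than 4 others. The midbrain of mouse 3, with 2.2 CPM of Siglec1, had the next highest sum, 19.5 CPM. Midbrain samples of mice 9, 11 and 12, with sums of 2.62, 3.07 and 2.65 CPM, had 0.0748, 0 and 0 CPM of Siglec1. Other samples had higher sums and no Siglec1, the PFC of mouse 1 (sum 11.1 CPM) and the striatum of mouse 6 (sum 9.29 CPM) among them. The midbrain of mouse 5, at 2.27 CPM of Siglec1, had a sum of 9.19 CPM. The sample with the most Siglec1, the midbrain of mouse 5, also had the highest sum of 12 interferon-stimulated genes, 559.8 CPM, while the next, the midbrain of mouse 3, ranked 15 in that sum at 117 CPM. The part of these cells and genes in the Siglec1 level was not tested.

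No member was called for a main effect of sex. In edgeR 0 of 5 members passed an unadjusted p of 0.05 with a fold change over 1.2 (4.13% of all genes), 0 passed that p alone, and 0 were called by DESeq2 or limma-voom. For Siglech, the log2 fold change of females over males was 0.0020 (95% CI -0.083 to 0.087), for Siglece -0.044 (-0.13 to 0.041), and for Cd33 -0.045 (-0.13 to 0.041). The intervals of Cd22 (-0.33 to 0.12) and Siglec1 (-1.0 to 2.0) were wider. This fit took the samples of a mouse as independent, so all these intervals may be too narrow. The interaction of region and sex had an unadjusted p of 0.153 or more for each of the 5 (edgeR), and 0 of 5 had an interaction called, as had 0% of all genes. Within regions, 1 of 15 tests of members passed the unadjusted rule, Siglec1 in the PFC (5.29% of all genes passed there, 4.84% in the midbrain and 2.28% in the striatum). Its female samples had a lowest value of 0 CPM, a median of 0.538 and a highest of 1.27, and the male samples 0, 0, 0.0263, 0.0974 and 0.283. The sexes overlapped, and the call rested on an unadjusted p of 0.0496 (edgeR adjusted p = 0.837). It was lost without the midbrain sample of mouse 6.

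Further genes of the family, 3 in number, were in the table, and Siglec15 was not analysed here. Siglecf, a receptor of eosinophils and alveolar macrophages, had the opposite order to Siglech. It ran from 21.6 CPM through a median of 36.4 to 50.1 in the midbrain, from 15.997 through 27.9 to 33.3 in the striatum, and from 16.6 through 28.9 to 31.2 in the PFC. The regions overlapped, and within mice the midbrain was above the PFC in 11 of 11 and above the striatum in 11 of 12. Siglecf fell by 0.38 on the log2 scale in the PFC (SE 0.12, edgeR adjusted p = 0.0443) and by 0.43 in the striatum (SE 0.12, edgeR adjusted p = 0.0155), and both were called. Siglecg, an inhibitory Siglec of B cells, had a mean of 3.88 CPM and an adjusted p of 0.648 for region (edgeR). Mag, the myelin-associated glycoprotein of oligodendrocytes, had 55.6 CPM and an adjusted p of 0.361, and its r with 8 oligodendrocyte genes ranged from 0.528 for Cldn11 to 0.769 for Cnp.

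None of the genes that pass on Siglec signals was called. Of 10 in the list, 0 were called for any pair in edgeR. The shares of all genes called were 5.99% for PFC over midbrain, 6.47% for striatum over midbrain and 3.14% for striatum over PFC. At such shares a list of 10 genes can readily have none. Ptpn6 (PFC over midbrain) and Inpp5d (striatum over midbrain) had an unadjusted p under 0.05. The medians of the list were 0.020 for PFC over midbrain and -0.053 for striatum over midbrain. Tyrobp, the adaptor of Siglech, had 1969 ± 383 CPM in the midbrain (SD, n = 12), 1891 ± 231 in the striatum (n = 12) and 1877 ± 409 in the PFC (n = 11). Ptpn6 had a log2 fold change of -0.19 for PFC over midbrain (edgeR adjusted p = 0.0267), under the minimum fold change and with no region effect called. Inpp5d, a lipid phosphatase of the same pathway, had 0.22 for striatum over midbrain (edgeR adjusted p = 0.167).

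Enzymes that make, move and remove sialic acid differed in a few members. Of 18 sialyltransferases in the table (20 listed), 1 rose and 2 fell in the PFC against the midbrain, and 1 rose and 1 fell in the striatum. Of all genes, 5.99% and 6.47% were called in these pairs in either direction. St8sia6, which links sialic acids into short chains, fell from 23.3 ± 7.86 CPM in the midbrain to 9.87 ± 3.30 in the striatum (log2 fold change -1.22, SE 0.18, edgeR adjusted p = 2.42e-05) and 12.8 ± 5.68 in the PFC (log2 fold change -0.90). St6gal1, whose product CD22 binds, was at 90.2 ± 11.6 CPM in the midbrain and 74.7 ± 7.75 in the PFC (log2 fold change -0.27, edgeR adjusted p = 0.00384), a call lost on leaving out 3 of the 12 mice in turn. St6galnac5, which rose in both, had a mean of 0.258 CPM. Between sexes 2 of the 18 were called by the unadjusted rule, where 4.13% of all genes were. These were St8sia6, at 18.1 CPM in females and 12.5 in males (log2 fold change 0.53, edgeR adjusted p = 0.139), and St8sia1, at 1.196 and 1.994 CPM (log2 fold change -0.65, edgeR adjusted p = 0.605). The medians of the list, -0.024 and 0.068, lay near those of all genes.

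Of 7 genes of sialic acid synthesis and turnover, 1 was called between regions, Npl, a lyase that breaks sialic acid down. It rose in the PFC (log2 fold change 0.51) and the striatum (0.31) from 62.9 ± 6.79 CPM in the midbrain. The shares of all genes called in these pairs were 5.99% and 6.47%. Between sexes 1 was called, Cmah, a hydroxylase of sialic acid (edgeR adjusted p = 0.0357), where 4.13% of all genes passed the unadjusted rule. Its mean was 0.151 CPM in males and 0.0120 CPM, under the floor, in females. That test took the samples of a mouse as independent, as did those of St8sia6 and St8sia1 by sex, so these p-values may be too small. The genes of activation and transport, Cmas and Slc35a1, had log2 fold changes between -0.096 (Cmas, striatum) and 0.035 (Slc35a1, striatum) against the midbrain and were not called. Of 7 sialidases, esterases and partners, 1 was called, Ctsa, a lysosomal protein that stabilizes the sialidase Neu1, higher in the striatum by a log2 fold change of 0.27, a call lost on leaving out 4 of the 12 mice in turn. Neu1 itself had 83.2 ± 8.82 CPM in the midbrain and 92.7 ± 9.81 in the striatum and was not called.

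Of 12 interferon-stimulated genes, 5 fell in the PFC and the same 5 in the striatum, among them Irf7, Usp18, Ifit1 and Isg15, with list medians of -0.93 and -1.05. Of all genes, 5.99% and 6.47% were called in these pairs in either direction. The list summed to a median of 139 CPM in the midbrain, 90.1 in the striatum and 92.6 in the PFC. The midbrain of mouse 5 stood apart at 559.8 CPM and raised the midbrain means. Isg15, a ubiquitin-like protein, went from 9.31 ± 7.06 CPM in the midbrain (SD) to 4.90 ± 1.94 in the PFC and 4.48 ± 1.55 in the striatum. Irf7, a transcription factor of the interferon response, went from 19.5 ± 13.3 CPM to 9.54 ± 5.83 and 10.1 ± 6.37. The calls of Irf7, Usp18 and Ifit1 were lost on leaving out some single mice, those of Usp18 and Ifit1 in 10 of 12 such fits, whereas that of Isg15 was kept in all 12.

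**Figure D5:**
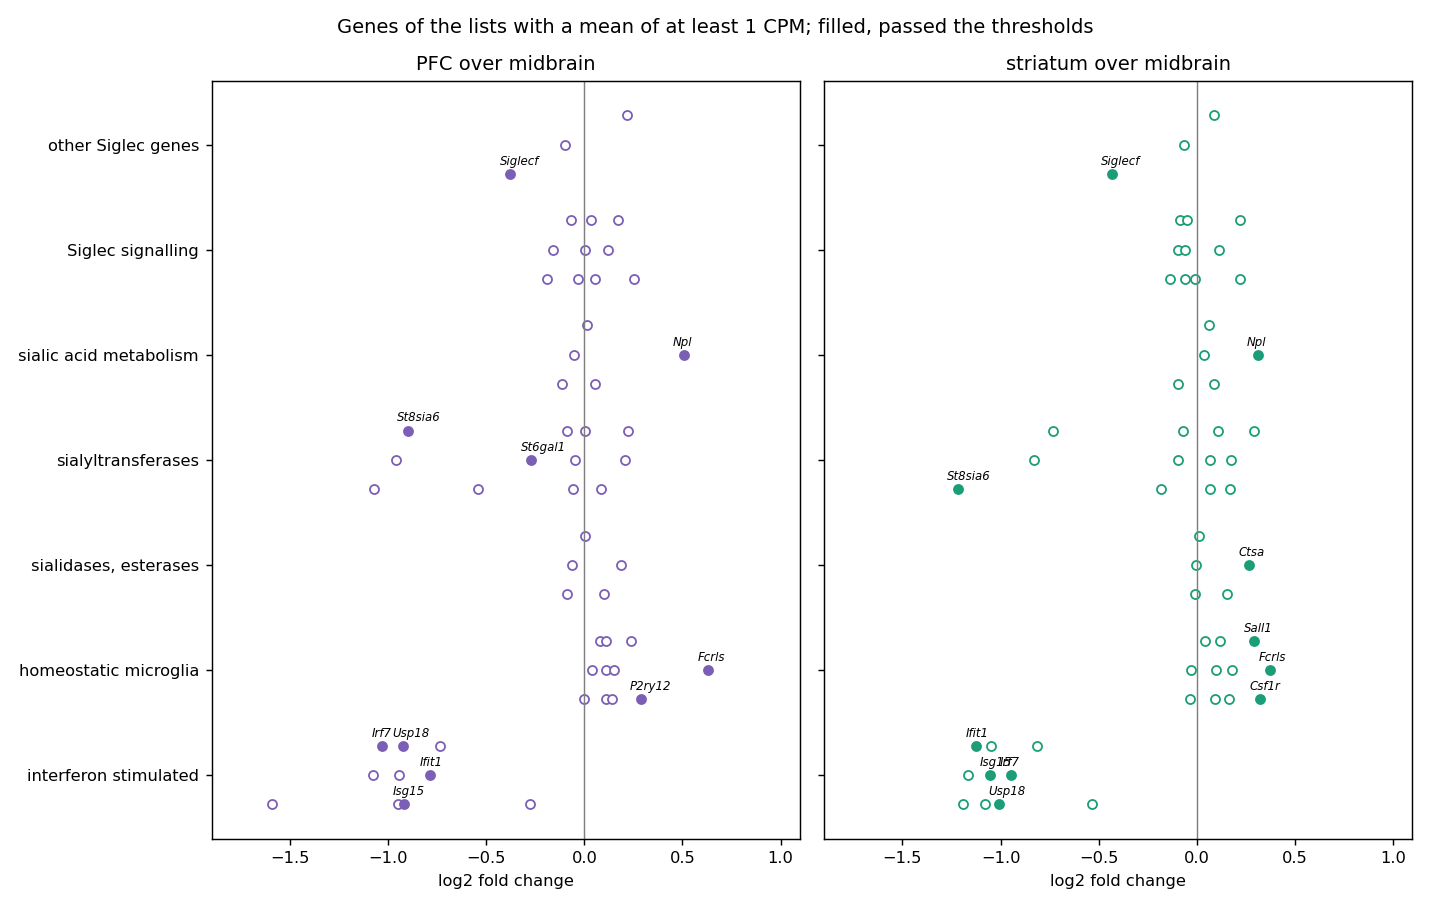
Log2 fold change (horizontal axis) of each listed gene with a mean of at least 1 CPM, for PFC over midbrain (left) and striatum over midbrain (right), in 1 row per list, with filled and named points for those that passed and without genes not reported here. The signalling genes lie around 0, and all interferon-stimulated genes shown lie below 0.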

How the data were processed

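RNA of sorted tdTomato+ microglia was amplified with Smart-Seq HT, made into libraries with Nextera XT and sequenced. The authors checked reads with FastQC, trimmed them with Trimmomatic, aligned them with HISAT2 to GRCm38, and removed low genes by CPM within subgroups. The counter, annotation, strand setting and treatment of multiply mapped reads are not given in the sources used here, and reads shared by near-identical Siglec genes may be split between them. The deposited values were whole-number counts per gene for 35 samples, which were grouped by the labels. The libraries were amplified without molecular identifiers, so the floor of 3 counts covers counting error only.

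Counts were fitted for all 21236 genes in edgeR 4.0.16 (R 4.3.3, TMM factors, robust quasi-likelihood) with region and sex as additive terms, and sex within a region in a model of the 6 groups. Tests were two-sided. CPM was computed with TMM factors, and log2 CPM for correlations had a prior count of 2. The genes named were the 5 members, the genes of the lists, and, for members with a mean of at least 1 CPM, the 3 genes with the highest r among those with a mean of at least 8 CPM. The members and lists were chosen with earlier results of these data known. In simulated counts for PFC against midbrain, 186 of 200 genes changed by a log2 fold change of 1 were recovered among 21236, with 13 false calls. Those counts were drawn without shared mice and called on the adjusted p alone. The region differences of Siglech and Cd33 were smaller, so the recovery does not give the power to find them. Alternatives were DESeq2 1.42.0, its size factors in edgeR, filterByExpr, limma-voom (limma 3.58.1) with the mouse as a random effect, counts summed per mouse, the mouse as a block, other thresholds, and fits without single mice or samples. The titles number the mice, and samples of 1 mouse deviated together (mean r of residuals 0.225 over 34 pairs, against -0.0939 over 255 pairs of different mice of 1 sex). Sequences came from RefSeq (GRCm38.p6), without bases that GENCODE M21 annotates as exon. No 2 samples had identical counts. Some genes of the lists enter the counts and sums but are not reported here by name.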

Additional observations from a re-analysis of the deposited data

Results flagged for a closer look

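In groups of 1 region and sex, 2 values lay far from the others by Dixon's criterion, out of 30 groups tested, of which chance alone would flag about 1 in 20. For Siglech, the female PFC sample of mouse 12 had 1469 CPM, against 1209.8 CPM or less in the other 5. For Cd22, the female PFC sample of mouse 2 had 9.39 CPM, against 13.4 to 15.1 CPM in the other 5. Without mouse 12, the log2 fold change of Siglech for PFC over midbrain was 0.23.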

How the results depend on the processing

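The number of members called for striatum over midbrain was 1 and for striatum over PFC 0 under every alternative run. For the region effect the number was 2, and 1 with an adjusted p under 0.01, in mice 1 to 6 alone, in mice 7 to 12 alone, without the midbrain sample of mouse 6 (an alternative chosen after seeing the data), and 1 to 2 on leaving out each mouse. For PFC over midbrain it was 0, and 2 by the adjusted p with no minimum fold change, and 0 to 1 on leaving out each mouse. For sex it was 0, and 1 in mice 1 to 6 alone (Cd22). For sex within a region it was 1, and 0 by the adjusted p, with DESeq2 size factors, with filterByExpr, in mice 1 to 6 alone, in mice 7 to 12 alone and without the midbrain sample of mouse 6, and 0 to 1 on leaving out each mouse. With the mouse as a replicate block, which pairs the samples of a mouse, the log2 fold change of Siglech for PFC over midbrain was 0.25, and the counts of members called for region and the 3 pairs did not change. Signs turned for differences that were not called. Siglech by sex was -0.0028 with DESeq2 and with its size factors, -0.0041 with filterByExpr, -0.055 in mice 1 to 6, -0.0044 without the midbrain sample of mouse 6, and -0.029 to 0.023 on leaving out each mouse. Cd22 for striatum over midbrain was 0.0082 with limma-voom, 0.0012 with the replicate block, 0.0016 in mice 7 to 12, 0.012 without the striatum sample of mouse 3, 0.028 without the midbrain sample of mouse 6, and -0.056 to 0.066 on leaving out each mouse. In mice 1 to 6 alone, Siglece for striatum over midbrain was -0.030 (-0.0086 to 0.036 on leaving out each mouse), Siglec1 by sex -0.0076, Cd22 for PFC over midbrain 0.013 and Cd22 for striatum over PFC -0.055. In mice 7 to 12 alone, Siglece for PFC over midbrain was 0.016, Cd33 for striatum over midbrain -0.076, Siglec1 for striatum over midbrain 0.66 and Cd22 by sex 0.070. The cause was not tested. Siglec1 was under 3 counts in 10 of 35 samples, where its level could not be resolved.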
